A study of Mus musculus with 50 samples.

Results

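Terminal end buds (TEBs) and ducts of wild type (WT) mammary glands at 6 weeks were compared with 3 TEB and 3 duct arrays, 6 of the 50 arrays of the series, chosen by the age, genotype and structure in the sample labels. The mice were of the CB6F1 background, carried no transgene and were littermates. Each structure was taken by laser capture from stained frozen sections so as to hold much epithelium and little stroma, and every sample was run on its own Affymetrix Mouse Gene 1.0 ST array. The labels call the 3 samples of each group biological replicates but do not say which TEB and duct samples came from the same mouse. For comparison, 3 TEB and 3 duct arrays of WT mice at 4 weeks were used, and 2 TEB and 2 duct arrays of 6-week DN-Clim mice, in which the keratin 14 promoter, active in basal cells, drives a Clim cofactor that acts as a dominant negative. WT mice of 8 and 10 weeks gave 2 arrays of each structure at each age, which shared the estimate of the spread, and 2 basal and 2 luminal samples of sorted cells from 10-week WT mice gave the epithelial layer in which a gene is expressed.

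The mammary tree grows during puberty from the TEB, a bulb of dividing cells at the tip of each duct that pushes through the fat pad and leaves a mature duct behind it. The bulb has an outer layer of cap cells, which give rise to the basal myoepithelial cells of the duct, and an inner mass of body cells, which give rise to its luminal layer. Growth ends when the tips reach the edge of the fat pad. Both structures lie in a stroma of adipocytes, fibroblasts and vessels, and a captured sample holds some of these cells.

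Values were PLIER intensities on a linear scale, where 200 or more on at least 1 laser capture array was required, and 13362 genes were tested on the log2 scale. TEB replicate 1 stood apart from the other 41 laser capture arrays. Its median intensity was 156 and 9.53% of its values were under 1, against medians of 184 to 221 and 0.160% to 1.85% of values under 1 in the others. Its median correlation with the other arrays was 0.815, against 0.930 to 0.970. The main results are therefore given with and without it. Among the older arrays, duct replicate 2 of 8 and of 10 weeks had a title that named duct and a description that named TEB. They were kept as duct, and the counts without them are given beside the first result.

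**Figure D1:**
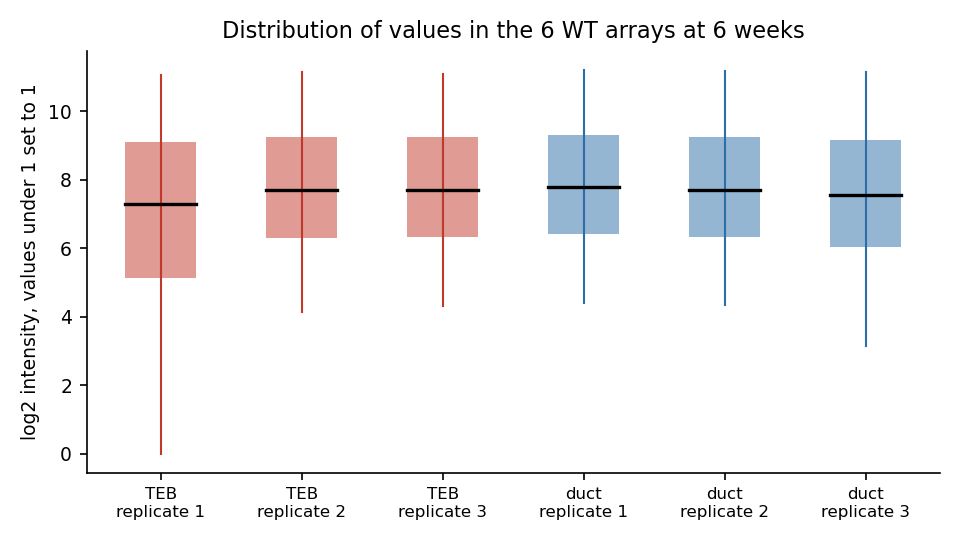
Distribution of log2 intensity over all probe sets in the 3 TEB arrays (left, red) and the 3 duct arrays (right, blue) of 6-week WT mice. Boxes span the middle of the values from the lower to the upper quartile, lines run between the 5th and 95th percentiles and black bars mark medians; TEB replicate 1 reaches down to the floor and its median lies below the other 5.

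The labelled tissue was checked against its markers. All 5 luminal markers fixed for this check were bright in every array, with keratin 8 (Krt8) at 6559, 7484 and 8865 in TEBs and 9203, 8800.3 and 8587 in ducts. The basal keratin Krt5 measured 1419, 1604 and 2067 in TEBs and 1978, 1652 and 2783 in ducts. Markers of other cells were also bright. The adipocyte hormone Adipoq measured 3681, 3996 and 4103 in TEBs and 3127, 2990.1 and 3121 in ducts. The fibroblast collagen Col1a1 measured 3144, 3709 and 3930.2 in TEBs and 3358, 3297 and 3486 in ducts. Fat and matrix RNA was therefore part of every sample. The endothelial cadherin Cdh5 measured 1152, 1189 and 1500.3 in TEBs and 1027, 893 and 1297 in ducts, whereas the B cell marker Cd79a was dim, at 1, 12.8 and 28.5 in TEBs and 58, 37.7 and 50 in ducts, where 1 is the floor. In such bulk samples fewer cells of a type and less RNA per cell cannot be told apart.

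At 6 weeks the TEB had less Mcm6, a subunit of the replicative helicase, less Chaf1b, a histone chaperone of replicated DNA, less of the iron-binding secreted protein lactoferrin (Ltf) and less of the R-spondin receptor Lgr5. It had more of the lipid droplet and lipolysis genes Plin1, Plin4, Cidec, Lipe and Pnpla2. These differences passed the test in the fit without TEB replicate 1, where 80 genes were higher in TEBs (0.599% of 13362) and 25 were lower (0.187%; limma, replicate number within each age as a random block standing for the mouse, adjusted p under 0.05). With all 6 arrays 0 genes passed in either direction (0% of 13362), the lowest adjusted p being 0.0506, and 2353 genes had an unadjusted p under 0.05, 481 of them higher (3.6%) and 1872 lower (14%).

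These counts rest on a few arrays and on the pairing. Without the block 0 genes passed in the fit without replicate 1 (limma, 1231 at an unadjusted p under 0.05). With the block 12 passed when duct replicate 2 was left out, 8 when duct replicate 3 was, 5 when TEB replicate 3 was and 427 when TEB replicate 2 was. With all 6 arrays as the start, 92 passed without duct replicate 1, 120 without TEB replicate 2 and 5 without TEB replicate 3. Without the 2 older duct arrays of conflicting labels 193 genes passed, or 3 with all 6 arrays of 6 weeks. Scaling moved the split: 76.2% of the genes that passed without replicate 1 were higher in TEBs, against 64.1% of 234 after quantile normalization and 62.5% of 184 once all arrays were given the same mean and unit variance. With all 6 arrays, quantile normalization gave 201 higher and 127 lower. Below, rose and fell are used of genes that passed in the fit without replicate 1.

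Lactoferrin fell most among the genes named by rule. Ltf measured 1323, 1134 and 1313 in TEBs, against 2943, 2563 and 3626 in ducts, a log2 difference of -1.31 ± 0.22 (SE; adjusted p = 0.0157 without replicate 1 and 0.0506 with it). The groups did not overlap, and all 3 TEBs lay close together. Lgr5, which marks stem cells in several epithelia, measured 240.3, 208 and 505 in TEBs and 774, 590.4 and 1045 in ducts, with TEB replicate 3 the highest TEB value but still below every duct (log2 difference -1.27 ± 0.24, adjusted p = 0.0237; 0.0506 with all 6 arrays). In sorted WT cells Ltf lay on the luminal side (log2 basal minus luminal -5.00) and Lgr5 on the basal side (5.54). All 3 TEB values lay above all 3 duct values for 458 genes (3.43%) and below them for 1191 (8.91%).

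Chaf1b, Clspn, Gmnn and Nap1l1 also fell. Chaf1b, a subunit of the chromatin assembly factor that loads histones behind the fork, measured 161, 273 and 137 in TEBs and 364, 406 and 282 in ducts (log2 difference -0.83 ± 0.16, adjusted p = 0.0257). Claspin (Clspn), which links stalled forks to the checkpoint kinase, measured 128, 109 and 61.2 in TEBs and 213, 244 and 126 in ducts, where TEB replicate 1 lay just above the lowest duct (log2 difference -1.16 ± 0.22, adjusted p = 0.0219). Geminin (Gmnn), the inhibitor of origin licensing, was dim throughout, at 27.6, 62.2 and 33.4 in TEBs and 98.9, 125 and 86.8 in ducts (log2 difference -1.18 ± 0.25, adjusted p = 0.0415). The histone chaperone Nap1l1 fell by less, with a log2 difference of -0.45 ± 0.10 (adjusted p = 0.0411), and its values overlapped, since TEB replicate 1 measured 788.

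Mcm6 was the member of the cell cycle and DNA replication list that passed the test, 1 of 36 measured, against 0.187% of all genes, and it did not pass when duct replicate 2, duct replicate 3 or TEB replicate 3 was left out. It measured 878, 904 and 725 in TEBs and 1256, 1367 and 1115 in ducts, without overlap (log2 difference -0.61 ± 0.10, adjusted p = 0.0157; 0.0506 with all 6 arrays). The promoters of Mcm6 and of its partners in the helicase ring, Mcm5 and Mcm7, are shown because they belong to 1 complex and their upstream bases hold a match to the motif of the E2F factors, which switch on the genes of DNA synthesis. Mcm5 and Mcm7 did not pass, with log2 differences of -0.52 ± 0.17 and -0.35 ± 0.15 (adjusted p = 0.145 and 0.264). The sequences are the 250 bases before the start site from RefSeq, GRCm38.p6. Capitals mark a match to TTTCCCGC, TTTCGCGC, TTTGCCGC or TTTGGCGC on either strand, and neighbouring matches can share bases. Mcm6 is at chr1:128359706-128359955 (minus strand), Mcm5 at chr8:75109259-75109508 (plus strand) and Mcm7 at chr5:138171884-138172133 (minus strand); Mcm7 has a second start site whose 250 bases hold no match.
Mcm6: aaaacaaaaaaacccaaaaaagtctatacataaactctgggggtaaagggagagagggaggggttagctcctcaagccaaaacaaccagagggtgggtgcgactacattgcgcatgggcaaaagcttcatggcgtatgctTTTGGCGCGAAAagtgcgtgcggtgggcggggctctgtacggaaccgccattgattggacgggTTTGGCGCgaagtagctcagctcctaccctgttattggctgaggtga
Mcm5: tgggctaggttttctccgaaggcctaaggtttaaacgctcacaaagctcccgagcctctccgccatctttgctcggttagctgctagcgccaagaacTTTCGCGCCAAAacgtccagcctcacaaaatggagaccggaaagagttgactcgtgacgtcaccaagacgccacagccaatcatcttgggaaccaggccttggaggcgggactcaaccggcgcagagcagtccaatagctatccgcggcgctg
Mcm7: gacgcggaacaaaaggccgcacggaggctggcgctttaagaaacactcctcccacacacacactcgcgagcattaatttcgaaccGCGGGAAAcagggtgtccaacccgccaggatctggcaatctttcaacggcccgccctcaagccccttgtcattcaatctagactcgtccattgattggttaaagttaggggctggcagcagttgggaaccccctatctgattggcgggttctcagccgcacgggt
Of the 36 list members, 27 were matched in the promoter table and 5 of these (18.5%) held a match, namely Cdk1, Cdk2, Mcm5, Mcm6 and Mcm7. Among all genes tested 396 of 10583 matched (3.74%) did, and 611 of all 32851 promoters in the table (1.86%). Of the 25 genes that fell, 20 were matched and 2 of these (10%) held a match, Mcm6 and Plscr1. Of the 80 that rose, 50 were matched and 1 (2%) held one. A match is a description of the letters and not evidence of binding.

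The other members of the list did not pass at 6 weeks, but 33 of 36 had a log2 difference below 0, against 48.7% of all genes, and the list median was -0.62, against 0.0059 over all genes. At an unadjusted p under 0.05, 20 were lower, against 7.39% of all genes. With all 6 arrays the list median was -0.64 and 35 of 36 were below 0, against 69.9% of all genes. In these genes same-numbered TEB and duct samples varied together. Mki67, the proliferation antigen, measured 942, 1081 and 445 in TEBs and 1421, 1609 and 711 in ducts, with replicate 3 the lowest of both groups, so that the groups overlapped while each TEB lay below the duct of its own number (log2 difference -0.71 ± 0.39, adjusted p = 0.382). Top2a, the topoisomerase of mitotic chromosomes, measured 465, 637 and 239 in TEBs and 878, 1047 and 454 in ducts, with the same order in each pair (log2 difference -0.89 ± 0.42, adjusted p = 0.291). In all, 30 of the 36 members were lower in the TEB in each of the 3 same-numbered pairs, against 22.8% of all genes. The list median within pairs was -0.91 in pair 1, -0.56 in pair 2 and -0.51 in pair 3, against medians of all genes of -0.27, -0.022 and 0.073.

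Members of different steps of the cycle had negative values. The sliding clamp Pcna had a log2 difference of -0.49 ± 0.13 (adjusted p = 0.0824) and the thymidylate synthase Tyms one of -0.46 ± 0.11 (adjusted p = 0.0576). The spindle checkpoint kinase Bub1 had the most negative value of the list, -1.14 ± 0.44 (adjusted p = 0.204), with 141, 256 and 88.9 in TEBs and 517, 524 and 169 in ducts. The 3 members not below 0 were Ccne1, Ccnd2 and Cdk2, the cyclins and kinase of the entry into the cycle, with values of 0.012, 0.012 and 0.0065.

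**Figure D2:**
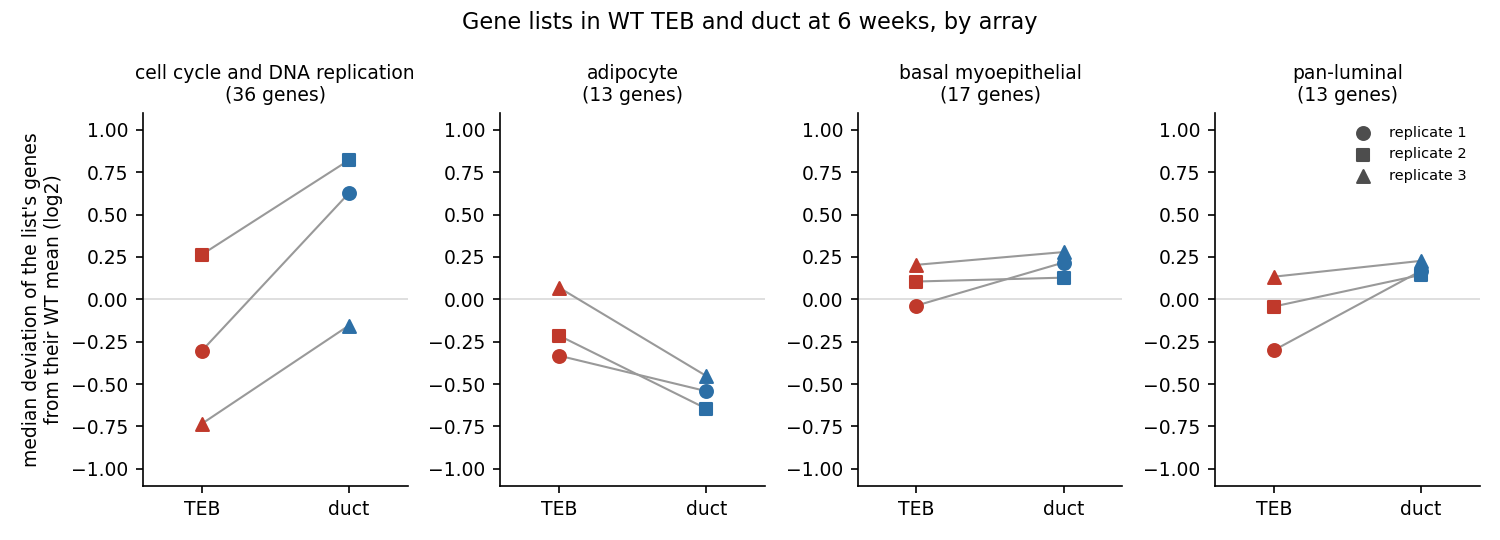
Median deviation (log2) of the members of 4 gene lists from their mean over the WT laser capture arrays, for each 6-week array, with TEB at left and duct at right and grey lines joining samples with the same replicate number. The cell cycle median was lower in the TEB of every pair and the adipocyte median higher, while replicate 3 had the lowest cell cycle values in both structures.

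The adipocyte list was higher in TEBs. Of 13 members measured, 5 rose and 0 fell, against 0.599% of all genes that rose, all 13 had a log2 difference above 0, against 51.3% of all genes, and the list median was 0.55. At an unadjusted p under 0.05, 12 were higher, against 9.81% of all genes. With all 6 arrays the median was 0.48, all 13 were above 0, against 30.1% of all genes, and 0 members passed. The 5 calls became 1 without duct replicate 2, 1 without duct replicate 3, 0 without TEB replicate 3 and 0 without the block. In each of the 3 pairs 11 of the 13 were higher in the TEB, against 8.3% of all genes. Perilipin 1 (Plin1), which coats the lipid droplet, measured 2514, 2517 and 3718 in TEBs and 1783, 1688 and 2175 in ducts, without overlap (log2 difference 0.70 ± 0.13, adjusted p = 0.0215; 0.0736 with all 6 arrays). Hormone-sensitive lipase (Lipe) measured 2475, 2495 and 3529 in TEBs and 1927, 1776 and 2130.3 in ducts, again without overlap (0.61 ± 0.11, adjusted p = 0.0195). The droplet protein Plin4 had a log2 difference of 0.60 ± 0.083, the droplet fusion protein Cidec one of 0.58 ± 0.10 and the triglyceride lipase Pnpla2 one of 0.61 ± 0.11 (adjusted p = 0.00964, 0.017 and 0.017).

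The defining adipocyte genes Adipoq and Fabp4 were bright in both structures and had differences below the list median. Adipoq had a log2 difference of 0.40 ± 0.13 and the fatty acid binding protein Fabp4 one of 0.27 ± 0.085, and neither passed (adjusted p = 0.126 and 0.126). The regulator of fat cell formation Pparg, also a list member, had 0.58 ± 0.13 (adjusted p = 0.0506). The summed intensity of the 13 genes was 45506, 49391 and 59083 in the 3 TEBs and 41858, 38811 and 43062 in the 3 ducts, so that every TEB exceeded every duct. The part that captured fat cells played in the calls was not tested.

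Among called genes outside the list, Hcar1, Acacb, Pde3b, Trarg1, Slc2a4, Lpin1, Dgat1, Slc27a1 and Pck1 rose. Hcar1, the lactate receptor of adipocytes, measured 334, 262 and 348 in TEBs and 205, 156 and 152 in ducts, without overlap (log2 difference 0.89 ± 0.18, adjusted p = 0.0346). Acacb, the acetyl-CoA carboxylase of the mitochondrial surface, measured 1744, 1601 and 2605 in TEBs and 1036, 938 and 1347 in ducts (0.89 ± 0.18, adjusted p = 0.0336). The insulin-regulated phosphodiesterase Pde3b measured 1354, 1475 and 1183 in TEBs and 948, 909.6 and 676 in ducts (0.70 ± 0.14, adjusted p = 0.0269). None of these genes overlapped between the structures. Trarg1, a regulator of glucose transporter traffic in fat cells, and the insulin-responsive glucose transporter Slc2a4 had log2 differences of 0.81 ± 0.14 and 0.66 ± 0.14 (adjusted p = 0.017 and 0.0364). The phosphatidate phosphatase Lpin1, the triglyceride synthase Dgat1, the fatty acid transporter Slc27a1 and the gluconeogenic and glyceroneogenic enzyme Pck1 had 0.62, 0.49, 0.60 and 0.65 (adjusted p = 0.00964, 0.0346, 0.00964 and 0.0364). Lpin1 and Slc27a1 shared the lowest adjusted p of all genes with Plin4, the translation repressor Eif4ebp1, the secreted protease Htra3 and the molybdenum cofactor enzyme Mocs1.

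Hoxc8, Pde8a and Nr1h3 also rose. The homeobox gene Hoxc8 had the largest increase among the genes named by rule, 337, 377 and 581 in TEBs and 288, 145 and 308 in ducts, with a low value in duct replicate 2 (log2 difference 1.06 ± 0.19, adjusted p = 0.0215; 0.107 with all 6 arrays). The cyclic AMP phosphodiesterase Pde8a measured 447, 342 and 419 in TEBs and 282, 228 and 138 in ducts (0.96 ± 0.20, adjusted p = 0.0362). The oxysterol receptor Nr1h3 measured 458, 454 and 638 in TEBs and 344, 318 and 288 in ducts (0.79 ± 0.12, adjusted p = 0.0136). All 3 had higher values in every TEB than in any duct. The remaining genes of the 12 largest increases were the dehydrogenase Dhdh, the amino acid transporter Slc36a2, the carboxylesterase Ces1f, the RNA-binding protein Rbpms2 and the galactosyltransferase B3galt2, with log2 differences of 0.74 to 0.95. Rgs7, a regulator of G protein signaling, was too dim for that rule but had the largest difference of all genes that rose, with 136, 167 and 198 in TEBs and 109, 71.1 and 47.5 in ducts (1.46 ± 0.27, adjusted p = 0.0219).

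Notch4, the Notch receptor of endothelium, was the only called member of the Notch list. It was 1 of 14 measured, against 0.599% of all genes that rose, and it rested on leaving out replicate 1. The list median was 0.11, or -0.066 with all 6 arrays. Notch4 measured 123, 365 and 438 in TEBs and 249, 205 and 317 in ducts, so TEB replicate 1 was the lowest of the 6 arrays (0.66 ± 0.13, adjusted p = 0.0237, against 0.881 with all 6 arrays). The glycosyltransferase Mfng, which modifies Notch receptors, had the same pattern, 228, 481 and 640.3 in TEBs and 368, 298 and 324 in ducts (0.79 ± 0.13, adjusted p = 0.0156, against 0.452). Endothelial markers had a list median of 0.25 with 15 of 16 above 0, against 51.3% of all genes, and 0 called. Their summed intensity was 8538, 9122 and 11400 in TEBs against 8545, 7427 and 10098 in ducts, overlapping. Fibroblast and matrix genes had a list median of 0.14 with 15 of 17 above 0 and 0 called. With all 6 arrays the endothelial median was 0.086 with 12 of 16 above 0, against 30.1% of all genes. The fibroblast median was then 0.067 with 14 of 17 above 0. The part of vessel and stromal cells was not tested.

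Among the other genes that fell, the spliceosome core protein Snrpe measured 862, 966 and 602 in TEBs and 1406, 1583 and 1296 in ducts (-0.90 ± 0.15, adjusted p = 0.0157). The calcium-binding protein S100a6 measured 1442, 1599 and 1724 in TEBs and 2471, 2446 and 2527 in ducts (-0.58 ± 0.10, adjusted p = 0.0181). The monocarboxylate transporter Slc5a8 measured 626, 830.3 and 550.5 in TEBs and 1258, 1368 and 924 in ducts (-0.77 ± 0.15, adjusted p = 0.0269). In each of them every TEB was below every duct. The phospholipid scramblase Plscr1 and the homeobox gene Barx2 had log2 differences of -0.63 and -0.60 (adjusted p = 0.0269 and 0.0483). The others of the 12 largest decreases, Dcaf12l2, Klhl36 and Endod1, had differences of -0.61 to -0.54.

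**Figure D3:**
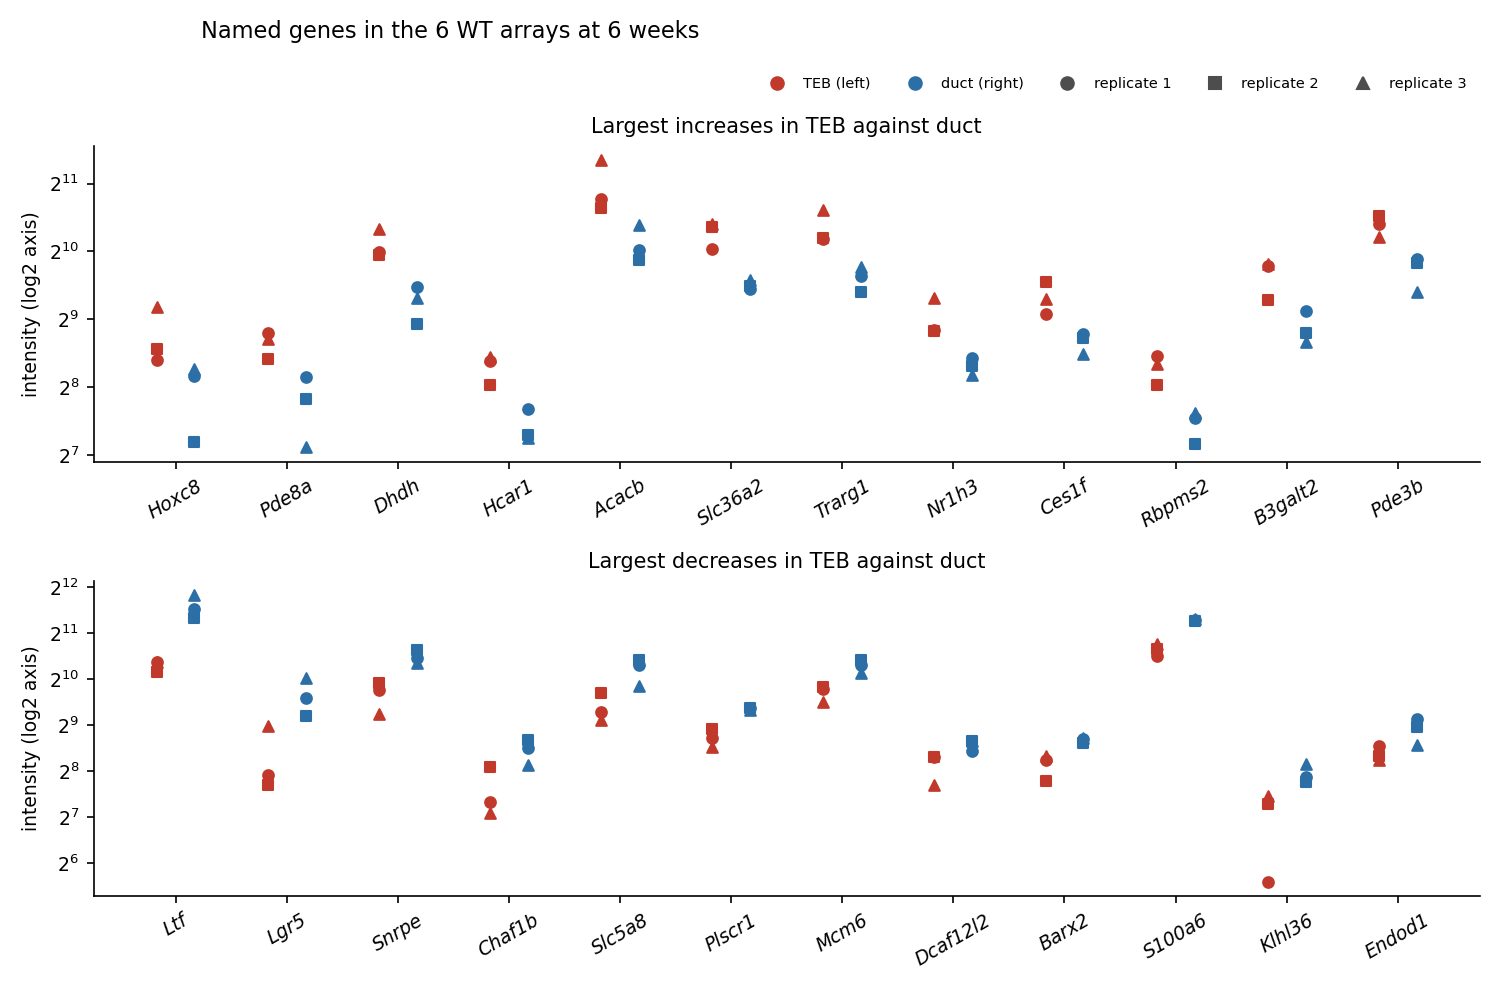
Intensity (log2 axis) of the 12 genes with the largest increases (upper row) and the 12 with the largest decreases (lower row) in each of the 6 arrays, TEB in red at the left of each gene and duct in blue at its right, with a symbol for each replicate number. By the rule that chose the genes, no TEB value overlaps the duct values.

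Basal and luminal markers had small differences. Of 17 basal myoepithelial genes, 0 rose and 0 fell, a count near the share of all genes called (0.599% higher and 0.187% lower), with a list median of -0.072 and a range over its members of -0.31 to 0.088. Of the 17, 14 were below 0, against 48.7% of all genes, and 15 with all 6 arrays, against 69.9%. Krt14 had a log2 difference of -0.047 ± 0.16, smooth muscle actin (Acta2) one of -0.11 ± 0.10, which became 0.0062 with unit variance, and the basal transcription factor Trp63 one of -0.052 ± 0.12 (adjusted p = 0.913, 0.613 and 0.87). The 13 pan-luminal genes had a list median of -0.11 and 0 calls, which became -0.22 with all 6 arrays and 0.0056 without TEB replicate 2 as well as replicate 1, with Krt8 at -0.11 ± 0.18 and the luminal factor Gata3 at -0.079 ± 0.13 (adjusted p = 0.805 and 0.798). Of these 13, 11 were below 0, and all 13 with all 6 arrays, beside the same shares of all genes. The hormone receptors Esr1 and Pgr had 0.029 ± 0.10 and 0.018 ± 0.17 (adjusted p = 0.913 and 0.97). The 8 luminal progenitor genes were all below 0, against 48.7% of all genes, with a median of -0.26 and 0 calls. The integrin subunit Itga2 among them had -0.35 ± 0.089 (adjusted p = 0.0689).

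The signaling lists held few calls, where 0.599% of all genes were higher and 0.187% lower. Among 16 Wnt receptors 1 fell, Lgr5, and among 9 Wnt ligands 0 passed, with Wnt5a at -0.52 ± 0.17 (adjusted p = 0.137). The median of the Wnt ligands was -0.084, or -0.52 with all 6 arrays, against 0.0059 and -0.090 over all genes. Among 14 FGF ligands and receptors and their targets, 12 ErbB ligands and receptors, 18 genes of TGF-beta and BMP signaling and 20 axon guidance genes 0 passed. Fgfr2 had a log2 difference of -0.14 ± 0.10, Erbb2 one of 0.017 ± 0.12 and Erbb3 one of -0.091 ± 0.11 (adjusted p = 0.49, 0.957 and 0.718). The guidance cue Ntn1, known from the inner cells of the bulb, measured 221, 558 and 643 in TEBs and 675, 657 and 761 in ducts, with TEB replicate 1 far below the rest (-0.23 ± 0.078, adjusted p = 0.155). The Clims are encoded by Ldb1 and Ldb2, and Ldb1 had 0.074 ± 0.089 and Ldb2 0.21 ± 0.23 (adjusted p = 0.724 and 0.682), with 0 of 8 genes of the Clims and their partners called.

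Among the other lists, of 29 ribosome biogenesis genes, 22 were below 0, against 48.7% of all genes, with a median of -0.18 and 0 calls. The nucleolar proteins nucleolin (Ncl) and nucleophosmin (Npm1) had -0.21 ± 0.091 and -0.32 ± 0.11 (adjusted p = 0.243 and 0.164). Of 14 genes of lipid and cholesterol synthesis, 10 were above 0, against 51.3% of all genes, with a median of 0.24 and 0 calls. Among them were the fatty acid synthase Fasn at 0.39 ± 0.13 and its regulator Srebf1 at 0.43 ± 0.11 (adjusted p = 0.149 and 0.0678). The median of this list was 0.067 with all 6 arrays. Of 12 milk and alveolar genes Ltf fell, against 0.187% of all genes. The beta-casein Csn2 had 0.25 ± 0.12 and Wfdc18, of the whey acidic protein family, -0.91 ± 0.33 (adjusted p = 0.304 and 0.169). Of 9 lymphocyte genes 6 were below 0, against 48.7% of all genes, the B cell genes Ms4a1 and Cd79a at -1.57 ± 0.65 and -1.27 ± 0.61 (adjusted p = 0.229 and 0.297). The lymphocyte median was -0.27, or -0.72 with all 6 arrays. The 13 macrophage genes had a median of 0.061, or -0.055 with all 6 arrays, when the median over all genes was -0.090.

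The layer in which the called genes are expressed was read from the sorted WT cells, whose luminal samples carry the basal gate in their titles and the luminal gate in their descriptions. Of the 80 genes that rose, 58 were measured there at 150 or more on at least 1 array (72.5%), against 90.1% of all genes, and of the 25 that fell, 22 were (88%). Among the 58, 12 were higher in basal cells (20.7%) and 9 in luminal cells (15.5%), and among the 22, 6 (27.3%) and 4 (18.2%) were, against 15% and 18.7% of all genes measured in sorted cells. Plin4, Cidec, Hcar1, Pck1 and Pde3b were among those under 150 on every sorted array. Other lipid and glucose genes that rose were measured there. Mean intensity in WT basal and luminal cells was 1332 and 2746 for Pnpla2, 367 and 1429 for Lipe and 936 and 50.7 for Slc2a4. It was 408 and 665 for Lpin1, 755 and 1231 for Slc27a1 and 522 and 552 for Dgat1. Plin1 (138 and 116), Trarg1 (170 and 164) and Acacb (195 and 165) were dimmer.

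The 6-week difference was then set against that at 4 weeks, when the tree is in early growth. Cell division genes had the opposite order at the 2 ages. The list median was -0.62 at 6 weeks and 0.85 at 4 weeks, when 20 of 36 members were higher in the TEB (5.88% of all genes were) and 0 lower. In the test of the difference between the ages 27 of 36 members were lower at 6 weeks and 0 higher, against 5.38% and 3.97% of all genes. With all arrays 14 were lower and 0 higher, against 2.9% and 0.988%. Mcm6 had a log2 difference of -0.61 at 6 weeks and 0.64 at 4 weeks (adjusted p of the difference = 0.000532), and Pcna one of -0.49 at 6 weeks and 0.64 at 4 weeks (adjusted p = 0.00277). Mki67 fell short in this test, with -0.71 at 6 weeks and 0.94 at 4 weeks (adjusted p = 0.0563). Over all genes 530 differences were higher and 719 lower at 6 than at 4 weeks without replicate 1, and 132 and 387 with all arrays. Without the block 26 and 46 were in the fit without replicate 1, and in the same fit 717 genes in all passed without duct replicate 2 and 207 without TEB replicate 3. With all arrays, quantile normalization gave 545 and 642.

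Basal markers differed between the ages in the other direction. Their median was -0.072 at 6 weeks and -0.75 at 4 weeks, when 12 of 17 were lower in the TEB (4.46% of all genes were) and 0 higher, and 9 of 17 were higher and 0 lower at 6 weeks in the test of the difference (8 and 0 with all arrays), against 3.97% and 5.38% of all genes (0.988% and 2.9%). Krt14 had a log2 difference of -0.047 at 6 weeks and -1.30 at 4 weeks (adjusted p = 0.00378). The oxytocin receptor Oxtr had 0.088 at 6 weeks and -1.48 at 4 weeks (adjusted p = 0.00362), and the smooth muscle gene Cnn1 -0.034 at 6 weeks and -1.35 at 4 weeks (adjusted p = 0.00534). Trp63 did not pass, with -0.052 at 6 weeks and 0.22 at 4 weeks (adjusted p = 0.311).

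Adipocyte, fibroblast and endothelial genes were also higher at 6 than at 4 weeks relative to duct. Of the adipocyte list 5 of 13 passed upward and 0 downward, against 3.97% and 5.38% of all genes, with a median of 0.55 at 6 weeks and 0.049 at 4 weeks. The 5 were the same that passed at 6 weeks, and with all arrays Plin4 passed, against 0.988% of all genes upward. Of the fibroblast list 7 of 17 and of the endothelial list 5 of 16 passed upward and 0 downward (Loxl1 and Emcn with all arrays), their medians being 0.14 and 0.25 at 6 weeks, against -0.29 and -0.28 at 4 weeks. Other genes had the same direction at both ages. Ltf had -1.31 at 6 weeks and -2.47 at 4 weeks (adjusted p of the difference = 0.0215), and Lgr5 -1.27 at 6 weeks and -1.74 at 4 weeks (adjusted p = 0.383).

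**Figure D4:**
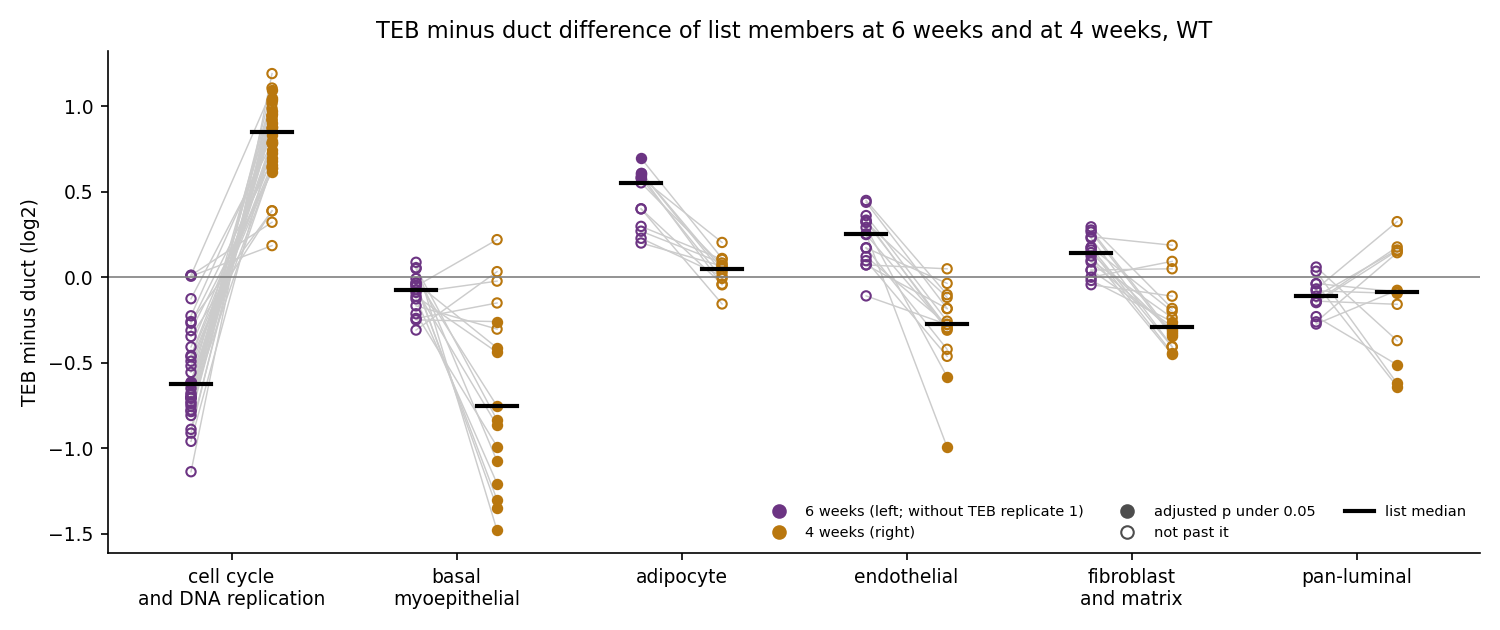
TEB minus duct difference (log2) of each member of 6 gene lists at 6 weeks without TEB replicate 1 (left) and at 4 weeks (right), with grey lines joining the values of a gene, filled points past an adjusted p of 0.05 and black bars at list medians. Cell cycle members lie mostly below 0 at 6 weeks and above it at 4 weeks, and basal members are near 0 at 6 weeks.

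Other genes also passed the test of the difference between the ages. Crispld2, a secreted protein, had the lowest adjusted p of this test, with a log2 difference of -0.37 ± 0.069 at 6 weeks and 1.04 at 4 weeks (adjusted p = 6.19e-07), and it passed at 6 weeks too, with 1028, 1065 and 1077 in TEBs and 1474, 1460.0 and 1273 in ducts. The ErbB ligand Nrg1 measured 152, 262 and 159 in TEBs and 415, 437 and 187 in ducts at 6 weeks, with overlap, and its difference was -0.59 ± 0.30, against 1.31 at 4 weeks (adjusted p = 0.0092). Wnt5a, which restrains branching, had -0.52 at 6 weeks and 1.19 at 4 weeks (adjusted p = 0.00156). The semaphorin Sema3b had -0.28 at 6 weeks and 1.28 at 4 weeks (adjusted p = 0.00285), the protease inhibitor Timp1 -0.44 at 6 weeks and 1.06 at 4 weeks (adjusted p = 0.00588), and the FGF target Etv4 -0.26 at 6 weeks and 1.00 at 4 weeks (adjusted p = 0.00702). In the last 5 genes the 6-week value missed the threshold on its own.

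Levels over the 4 ages place the 6-week difference. Relative to their mean over the WT arrays, the cell cycle genes had a median deviation of 1.58 to 1.81 in the 3 TEBs at 4 weeks, -0.73 to 0.26 at 6 weeks, -0.99 and -0.79 at 8 weeks and -1.42 and -0.40 at 10 weeks. In ducts the same median was 0.68 to 1.01 at 4 weeks, -0.15 to 0.82 at 6 weeks, -1.01 and -0.87 at 8 weeks and -1.60 and -0.69 at 10 weeks. At 6 weeks all 3 TEBs lay below every 4-week TEB, while duct replicate 2 lay within the range of the 4-week ducts and duct replicate 1, at 0.63, just under it, and duct replicate 3, at -0.15, lay far below them. The adipocyte genes had a median deviation of -0.27 to -0.099 in TEBs at 4 weeks, -0.33 to 0.069 at 6 weeks, 0.29 and 0.48 at 8 weeks and 0.60 and 0.69 at 10 weeks. In ducts it was -0.39 to -0.14 at 4 weeks, -0.65 to -0.45 at 6 weeks, 0.33 and 0.33 at 8 weeks and 0.32 and 0.50 at 10 weeks, so the 6-week ducts were the lowest of all. These levels are a description, with no test.

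**Figure D5:**
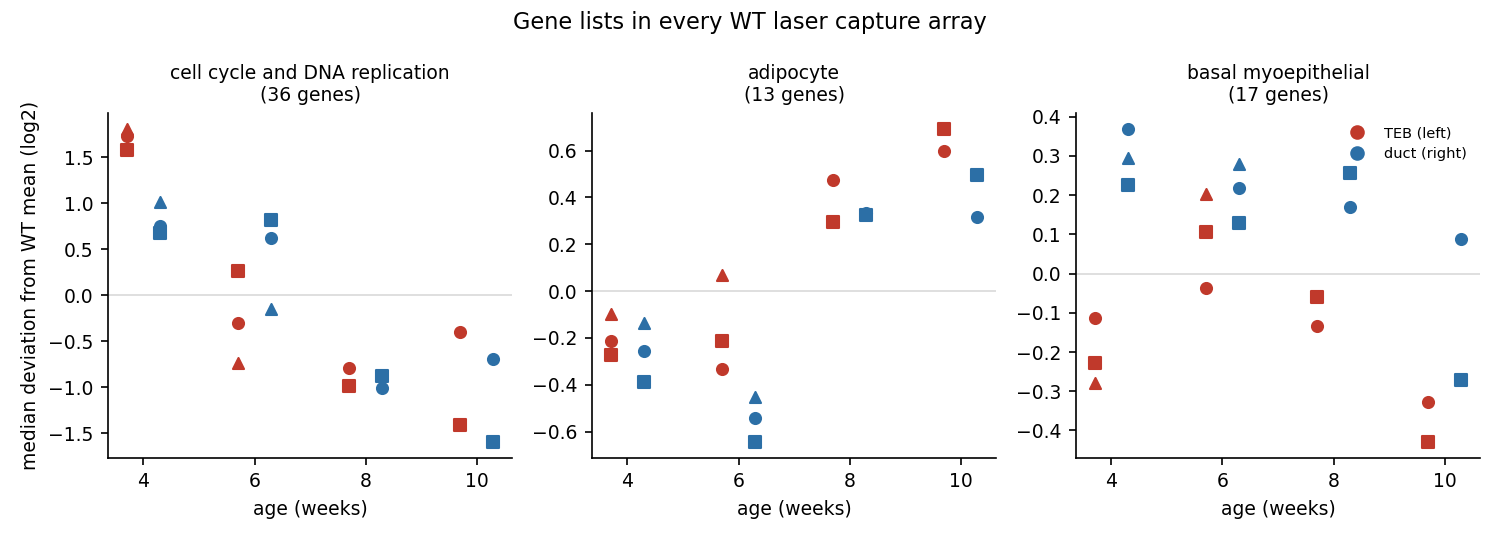
Median deviation (log2) of 3 gene lists from their mean over the 20 WT laser capture arrays at 4, 6, 8 and 10 weeks, with TEB in red at left and duct in blue at right, 1 point per array and a symbol for each replicate number; each panel has its own vertical scale. Cell cycle levels lie highest in 4-week TEBs, and at 6 weeks each TEB lies below the duct of its own number.

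The same structures of 6-week DN-Clim mice gave a second set of samples that shared no array with the WT comparison. In WT mice the cell cycle list had a median of -0.62 with 33 of 36 members below 0, and in DN-Clim mice -0.46 with 35 of 36 below 0, against 75.8% of all genes below 0 in DN-Clim mice. The adipocyte list had a median of 0.55 in WT mice and 0.42 in DN-Clim mice, with 12 of 13 above 0, against 24.2% of all genes in DN-Clim mice. In the DN-Clim comparison 20 genes were higher (0.15%) and 425 lower (3.18%) in TEBs, including 0 cell cycle members and 1 adipocyte member that was higher, Plin4 (0.55, adjusted p = 0.0268). Of the 80 genes that rose in WT mice, 72 were above 0 in DN-Clim mice, against 24.2% of all genes. Of the 25 that fell, 23 were below 0 in DN-Clim mice, against 75.8% of all genes. Ltf had a log2 difference of -1.31 in WT mice and -0.86 in DN-Clim mice, and Lgr5 one of -1.27 in WT mice and -1.62 in DN-Clim mice (adjusted p of the differences = 0.769 and 0.779).

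The test of the difference between the genotypes depended on TEB replicate 1 and on the scale. With all arrays 0 genes passed (0% in either direction), with 914 at an unadjusted p under 0.05, 568 of them higher (4.25%) and 346 lower (2.59%). Without replicate 1, 96 were higher in WT (0.718%) and 4 lower (0.0299%), beside a shift of all genes of 0.12, the DN-Clim difference having a median of -0.11 over all genes. After quantile normalization these counts were 3 and 8, without the block they were 0 and 0 (776 at an unadjusted p under 0.05), and without WT duct replicate 3 or WT TEB replicate 3 they summed to 2 and 3. Without WT TEB replicate 2 they summed to 578, without WT duct replicate 1 to 174 and without WT duct replicate 2 to 167. Of the genes named by rule, Dcaf12l2 passed, with -0.61 in WT mice and 0.45 in DN-Clim mice (adjusted p = 0.00464). The other 3 lower genes were Ankrd34b, Bpifb9a and the testis kinase Tssk1. No member of the cell cycle, basal or adipocyte list did.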

How the data were processed

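The authors summarized the arrays with PLIER, and the deposited values are probe set intensities on a linear scale; the study's methods add a log2 transform and mean centring with unit variance, which these values do not carry and which was run as an alternative, and name no background correction. Signal over background and the number of arrays limit the precision. A floor of 1 was set before the log2 transform. Of 35557 probe sets, 21789 had 1 gene symbol in the platform annotation, 1621 several and 12147 none; the brightest probe set stood for each of 13362 genes that reached 200 on any of 42 laser capture arrays.

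limma 3.58.1 in R 4.3.3 fitted 1 mean per structure and age over the 20 WT arrays (42 for DN-Clim) with duplicateCorrelation, eBayes with a trend and Benjamini-Hochberg adjustment over all genes. Same-numbered TEB and duct samples deviated together in 20 of 21 pairs, with r of 0.134 to 0.835. In WT mice at 6 weeks r was -0.083, 0.333 and 0.175 in pairs 1, 2 and 3. Where both groups had 2 arrays, their 2 pairs gave the same r by construction, and samples of different numbers were not compared. The pairing is a hint from the data, since the labels name no mouse. The consensus correlation was 0.228, or 0.404 without TEB replicate 1. The fit without replicate 1 was run on simulated data with 200 of 13362 genes changed and the correlation set to that 0.404. It called 90% of changes of 1 and 99% of changes of 2 (log2), with 5 false calls among 194. The simulated samples were built in pairs, so this run cannot test the pairing of the real arrays. The share of false calls on the real arrays was not tested. Sorted cells were fitted apart, over 8 arrays.

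The members, gene lists and naming rule (the 12 largest changes in each direction that passed without replicate 1, did not overlap and averaged 200 in the higher group, a fixed panel and list members) were chosen with earlier results of these data known; other genes were named after their values were seen. Alternatives covered normalization, floor, filter, block, array weights and left-out arrays.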

Additional observations from a re-analysis of the deposited data

Results flagged for a closer look

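The TEB minus duct difference of 1249 genes differed between 6 and 4 weeks without TEB replicate 1, and of 519 with all arrays (limma, adjusted p under 0.05). Among named genes that fell in the TEB at 6 weeks, the change against 4 weeks was negative for the histone chaperone Chaf1b (-1.41), the spliceosome protein Snrpe (-1.03), the helicase subunit Mcm6 (-1.25), the calcium-binding protein S100a6 (-0.97), the transporter Slc5a8 (-0.68), Endod1 (-0.68), Dcaf12l2 (-0.64), the scramblase Plscr1 (-0.61) and Klhl36 (-0.48). It was positive for lactoferrin, Ltf (1.16), whose 6-week difference was smaller than that at 4 weeks. Among genes that rose it was positive for the oxysterol receptor Nr1h3 (0.88) and the RNA-binding protein Rbpms2 (0.70). Of the panel genes, the basal keratins Krt14 (1.25), Krt17 (1.08) and Krt5 (0.78) had positive values, and Nrg1 (-1.90) and Top2a (-1.83) negative ones.

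The difference of 100 genes differed between WT and DN-Clim mice at 6 weeks without WT TEB replicate 1. Of the genes named by rule this held for Dcaf12l2, whose WT minus DN-Clim value was -1.07.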

How the results depend on the processing

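For the 6-week comparison with all 6 arrays, where 0 genes passed, 328 passed after quantile normalization, 83 with a common mean and unit variance, 22 with a floor of 32, 38 with 200 or more required on at least 3 of the 6 arrays, 1 with the 6-week arrays alone and the replicate block as fixed terms, 70 with array weights, 12 with every probe set tested and 3 without the older duct arrays of conflicting labels, an alternative chosen after seeing the data. Leaving out 1 array gave 0 to 120 genes. For the fit without TEB replicate 1, where 105 passed, the same settings gave 234 after quantile normalization, 184 with unit variance, 526 with the block as fixed terms, 64 with array weights and 193 without the older duct arrays. Without a replicate block 0 passed, in the full fit and with the 6-week arrays alone (1231 and 850 at an unadjusted p under 0.05, limma). Leaving out a further array gave 5 to 427. The replicate numbers pair the samples only as a hint, and the calls depend on that pairing.

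For the difference between 6 and 4 weeks with all arrays, quantile normalization gave 1187 genes, no replicate block 63 and leaving out 1 array 80 to 1249; without TEB replicate 1, no block gave 72 and a further array left out 207 to 1483. The low counts of 80 and 717 came without duct replicate 2 and that of 207 without TEB replicate 3, while 814, 905 and 1249 came without duct replicates 1 and 3 and TEB replicate 1. For WT against DN-Clim with all arrays, quantile normalization gave 3 genes and leaving out 1 array 0 to 100; without TEB replicate 1, quantile normalization gave 11, no block 0 and a further array left out 2 to 578. The cause of these moves was not tested.

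Smooth muscle actin, Acta2, turned from -0.11 to 0.0062 with unit variance, neither past the threshold. The cell cycle median stayed between -0.94 and -0.33, the adipocyte median between 0.39 and 0.63 and the basal median between -0.13 and -0.05 under the normalizations, the floor and left-out arrays. The naming rule required all TEB values on 1 side of all duct values, so the direction was largely fixed in advance. All 24 genes named by rule kept their direction under 16 settings. They passed in numbers of 22 to 24 under 7 of them, 19 and 18 without duct replicate 1 or TEB replicate 2, 13 with array weights, 1 without duct replicate 2, duct replicate 3 or TEB replicate 3, 0 with TEB replicate 1 (highest adjusted p 0.14) and 0 without the block (highest adjusted p 0.393, or 0.76 with the 6-week arrays alone).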
